A study of Mus musculus with 4 samples.

Results

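Medullary and cortical thymic epithelial cells of control mice were compared gene by gene: the library of mTEC (Ly51− UEA1+) against the library of cTEC (Ly51+ UEA1−). A gene entered the comparison with 50 or more reads summed over both libraries, which 15747 of the 54532 genes in the deposited table reached. Both control libraries came from wild-type littermates on the C57BL/6 background, and the series also holds mTEC and cTEC libraries of SCD1 knockout mice on that background, which lack a fatty acid desaturase. Each of the 4 groups is 1 bulk RNA-seq library. For the age, sex and number of mice behind a library, and for the way Scd1 was disrupted, the sources used here give nothing. There is thus no replicate check: every interval below is a 95% interval of counting error, and the comparison is of 2 libraries. In bulk RNA, fewer cells of a type and less RNA per cell cannot be told apart. Where a pair of values follows a gene, the first is mTEC and the second cTEC of control mice, and a value in parentheses after them is the log2 ratio of mTEC over cTEC.

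The thymic cortex and medulla are lined by epithelial cells with different tasks. Cortical cells attract T cell progenitors, commit them through Notch ligands and select them on peptides cut by proteases of their own, such as the thymoproteasome subunit Psmb11 and the serine protease Prss16. Medullary cells show developing T cells the proteins of other tissues, partly through the transcription regulators Aire and Fezf2 and partly through mimetic cells, small epithelial subsets that take on programs of gut, muscle, skin, airway or endocrine cells.

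Totals over all genes were 16467844 reads in control mTEC and 15740383 in control cTEC, and 17051620 and 18151725 in the knockout libraries. Thinned to the smallest total, 19379 genes had 10 or more reads in control mTEC and 16839 in control cTEC, with 19390 and 16633 in the knockout mTEC and cTEC libraries. Transcripts of the mitochondrial genome took 3.30% of reads in control mTEC and 1.88% in control cTEC. Markers of other cells also differed. Of the 8 B cell markers with 50 reads, 7 were higher in mTEC, and all 10 listed genes summed to 157 CPM (counts-per-million, reads scaled to library size) in mTEC against 25.2 in cTEC. Of 14 myeloid and dendritic markers with 50 reads 11 were higher in mTEC, and the 18 listed genes summed to 432 against 149 CPM. All 4 erythroid markers with 50 reads were higher in mTEC, and the 9 listed genes, of which 3 had 0 reads in cTEC, summed to 23.8 against 2.88 CPM. A marker with few cTEC reads could reach 50 reads only by its mTEC reads, so the read minimum partly fixed the direction of these counts. Over all listed genes, the 20 thymocyte markers summed to 423 CPM in mTEC and 513 in cTEC, the 17 fibroblast and pericyte markers to 1122 and 821, and the 15 endothelial markers to 87.0 and 38.2. Their part in the differences below was not tested.

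More genes were higher in the medullary library, and by larger ratios. A gene was called higher on one side when it differed at least 2-fold and the exact interval of its ratio excluded equality. By this rule 2990 genes (19.0%) were higher in mTEC and 1343 (8.53%) in cTEC, 27.5% in either direction. The shares of 19.0% and 8.53% are the background for the list and family counts below, several of which lie near them. At 4-fold or more the counts were 1749 and 303, at 16-fold or more 506 and 13, and at 32-fold or more 248 and 4. The median log2 ratio of mTEC over cTEC across all genes tested was −0.06.

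The medullary side consisted largely of transcripts at low levels. Genes higher in mTEC had a median of 9.04 CPM there, against 24.1 CPM in cTEC for genes higher in cTEC, and 1086 of them were below 1 CPM in cTEC. Per length, as reads per kilobase rescaled to a common total (TPM), the medians were 8.35 and 19.2. The 2990 medullary genes nevertheless took 10.7% of all mTEC reads and 2.66% of cTEC reads, while the 1343 cortical genes took 12.2% of cTEC reads and 4.25% of mTEC reads. Of the tested genes, 87 had no read at all in control cTEC, and 84 of these code for proteins. All 87 had 10 or fewer reads in knockout cTEC as well. Against the floor of 3 counts per library these were at least 14.9-fold to at least 61.6-fold higher in mTEC. Every fold given as at least, here and below, takes this floor as the cTEC count. It is not the lower end of the exact interval, which can lie below it. For Alpi, given below as at least 43.3-fold, that end was a log2 ratio of 5.12. A single tested gene, the antibody segment Igkv4-68, had reads in cTEC (98) and none in mTEC. Genes with fewer than 50 reads are not in these counts. At the entry threshold, the 56 genes with exactly 50 reads ranged from −2.10 to 6.50 in log2 ratio, and the 48 genes just outside it, with 49 reads, from −2.90 to 6.47.

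**Figure D1:**
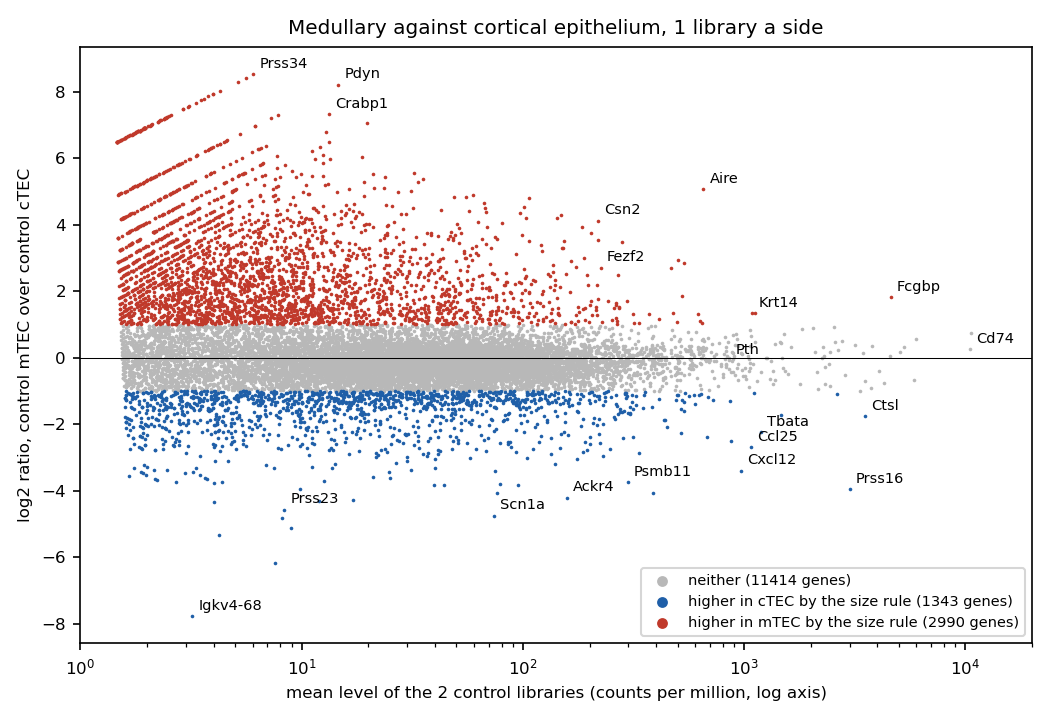
Each point is 1 of 15747 genes, placed by its mean level in the 2 control libraries (counts-per-million, log axis) and its log2 ratio of control mTEC over control cTEC. The 2990 genes higher in mTEC (red) reach ratios above 8 at low levels, the 1343 genes higher in cTEC (blue) include abundant transcripts such as Prss16, and the parallel lines at the upper left are genes with 0, 1, 2 or a few reads in cTEC.

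Most defining markers of each population were on the labelled side. Of the 14 cortical markers 12 were higher in cTEC, with a list median of −2.53, and of the 18 medullary markers 14 were higher in mTEC, with a median of 2.30. These lists define the populations, so their direction is a check of the labels. Aire (mm10 chromosome 10, 78030022 to 78043610, minus strand) had 21598 reads in control mTEC and 575 in control cTEC, 1267 against 37.6 CPM, and 1263 against 33.7 CPM in the knockout pair. Both mTEC libraries stood far above both cTEC libraries, with a control log2 ratio of 5.07 (4.95 to 5.20).

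Fezf2, the second regulator of tissue antigens, stood at 390 CPM in control mTEC and 59.3 in control cTEC (418 and 47.3 in the knockout pair), a log2 ratio of 2.71. The receptor RANK (Tnfrsf11a), which receives the maturation signal for mTEC, was at 124 and 17.5 CPM (2.82). The costimulatory ligand Cd80 was at 112 and 13.1 CPM (3.10). On the cortical side, Psmb11 (chromosome 14, 54621433 to 54629556) stood at 41.4 CPM in control mTEC and 554 in control cTEC, with 58.4 and 696 in the knockout pair (−3.74 and −3.57). Prss16 (chromosome 13, 22002173 to 22009742) stood at 363 and 5640 CPM (−3.96). The endocytic receptor Ly75 (CD205) stood at 80.5 and 587 CPM (−2.86). The cTEC library was the higher of each pair for all 3.

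Markers of the sort itself were also separated. Enpep, which encodes the Ly51 antigen used for sorting, was at 22.9 CPM in control mTEC and 185 in control cTEC. UEA1 is a lectin that binds fucosylated sugars, and Fut1 and Fut2, fucosyltransferase genes picked out after their values were seen, were at 43.5 and 12.1 CPM in control mTEC against 3.53 and 2.75 in control cTEC. Several listed markers did not reach the rule. Krt8 and Il7, listed as cortical, had log2 ratios of −0.52 and −0.46. Among medullary markers Krt5 was at 0.47, the integrin Itgb4 at −0.32, and the epithelial stem cell factor Trp63 stood at 274 CPM in mTEC and 546 in cTEC, just short of 2-fold. The chemokine symbol Ccl21a stands at 2 entries of the table. The one used here, on an unplaced scaffold, had a log2 ratio of 0.80, and the one on chromosome 4, with 70.6% of its windows shared with other genes, had 874 and 279 reads and reached the rule in mTEC.

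**Figure D2:**
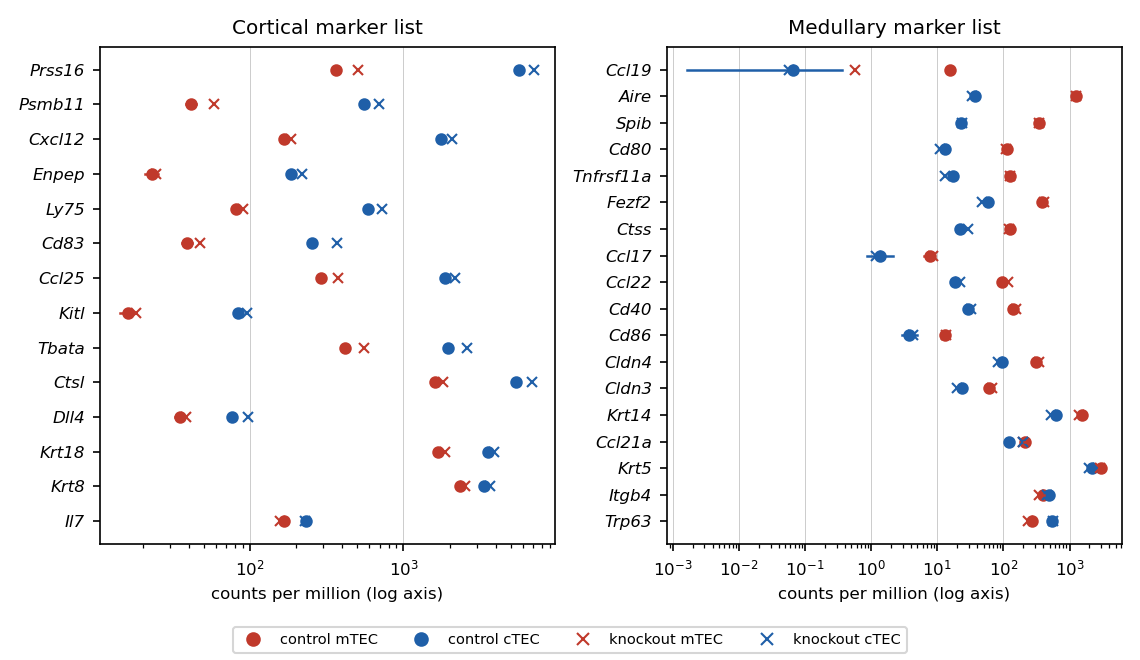
Levels of the 14 cortical and 18 medullary markers in the 4 libraries (counts-per-million, log axis); filled circles are the control libraries with 95% Poisson intervals, crosses the knockout libraries. For Prss16 to Krt18 both cTEC libraries lie right of both mTEC libraries, while Krt5, Itgb4 and Trp63 on the medullary side differ little or lie the other way, and Ccl19 differs between the 2 mTEC libraries.

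Of 12 genes shared by both epithelia, mostly regulators of thymus identity, 3 were higher in cTEC and 1 in mTEC, with a median of −0.58. The list also holds the adhesion gene Epcam (0.765), and Trp63, which is counted among the medullary markers too. Foxn1, the master regulator of thymic epithelium, stood at 126 CPM in control mTEC and 172 in control cTEC, a log2 ratio of −0.45 that did not reach the rule. Pax1, a paired-box factor of the pharyngeal pouch, was at 170 and 724 CPM and higher in cTEC (−2.09, −2.15 to −2.03). Bcl11a (−1.54) and Hoxa3 (−1.16) were also higher in cTEC. Tbx1, with 106 and 40 reads, was the member higher in mTEC (1.24, 0.71 to 1.81), and its knockout libraries held 77 and 72 reads (0.09).

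The genes named next are medullary ones with the interval bound farthest from equality. Pdyn, the precursor of dynorphin opioid peptides, had 496 reads in control mTEC and 1 in control cTEC, and 506 and 12 in the knockout libraries, a control log2 ratio of 8.21 (6.31 to 14.10). Clca3b, a chloride channel accessory protein, had 670 and 4 reads (7.06). Crabp1, a cellular retinoic acid binding protein, had 450 and 2 reads (7.34). In each case nearly all reads of a genotype lay in its mTEC library.

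Prss34, a mast cell protease, had 206 reads in control mTEC and none in control cTEC, at least 61.6-fold higher, with 191 and 4 reads in the knockout pair. Obp2a, an odorant binding protein, had 176 and 0 reads (at least 52.6-fold), and the intestinal phosphatase Alpi 145 and 0 (at least 43.3-fold). Madcam1, an adhesion molecule for lymphocytes, had 435 and 3 reads, the gut peptide precursor Nts 629 and 8, and the Notch-related gene Dlk1 450 and 4. The chemokine Ccl19 had 264 and 1 reads in the control pair but 10 and 1 in the knockout pair. Of its 50-base windows 53.3% occur in another gene, so reads of its copies may be split.

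The cortical genes named next were chosen in the same way. Scn1a, a voltage-gated sodium channel, had 90 reads in control mTEC and 2182 in control cTEC, and 146 and 2580 in the knockout pair, a control log2 ratio of −4.75 (−5.08 to −4.45). Ackr4, a scavenging receptor for the chemokines CCL19, CCL21 and CCL25, had 275 and 4575 reads (−4.21). Snhg11, a host gene of small nucleolar RNAs, had 737 and 11129 reads (−4.07), and Igfbp7, an insulin-like growth factor binding protein, 147 and 2205 (−4.06). All 4 were also higher in cTEC in the knockout pair, at −4.14, −4.00, −3.89 and −3.64. Fewer reads stood behind other cortical leaders: Colgalt2 had 9 and 240 (−4.82), Prss23 11 and 245 (−4.57), Cys1 19 and 350, and Adhfe1 28 and 495 (−4.28).

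Further cortical leaders were Abat, which breaks down the transmitter GABA (−3.84), the transcription factor Klf15 (−3.84), the microtubule protein Mtcl1 (−3.84) and the synaptic vesicle protein Syngr1 (−3.80). The potassium channel Kcnk2, at 12.7 and 137 CPM (−3.42), and the neurofilament Nefm, at 12.7 and 102 CPM (−3.01), were also higher in cTEC. The glutamate receptor Grm8 had 47 and 391 reads (−3.20). In their families the counts lay on the medullary side: 24 of 47 potassium channel genes were higher in mTEC and 6 in cTEC, and 13 of 21 GABA and glutamate receptor genes were higher in mTEC and 3 in cTEC. Only 47 of 99 channel and 21 of 48 receptor genes had 50 reads, and 23 and 16 had 0 reads in control cTEC. A gene with few cTEC reads could enter only by its mTEC reads, so the read minimum partly fixed the direction of these counts.

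The genes with the highest levels per length were mostly other ones. Levels in these sentences are TPM, which account for gene length. Among genes higher in mTEC the highest were the basal keratin Krt14 (2532 in control mTEC, 1005 in control cTEC), the ubiquitin-like protein Ubd (2527 and 702), the glutathione peroxidase Gpx3 (2522 and 1003) and the mucus protein Fcgbp (1951 and 549). Aire itself reached 946 against 28.1. Among genes higher in cTEC the highest were Krt18 (3348 in mTEC, 7105 in cTEC), the ferritin chain Fth1 (2348 and 4936), Prss16 (248 and 3858), the cathepsin inhibitor Cstb (1448 and 3505) and the carbonyl reductase Cbr2 (562 and 3185). Gas6, a ligand of the receptors that recognise dying cells, followed at 769 and 2534, and Tbata, a thymus-enriched gene, at 489 and 2317.

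Of 1007 tested genes with a transcription factor family in the deposited table, 158 (15.7%) were higher in mTEC and 88 (8.74%) in cTEC, with a median of −0.13. Over all tested genes the shares were 19.0% and 8.53%. The T-box family was picked out after its values were seen: 8 of 11 were higher in mTEC and none in cTEC, with a median of 2.04 and 7 of 11 in the knockout pair. Only 11 of its 17 genes had 50 reads, so the read minimum bears on this count too. Tbx3 had 245 and 16 reads (3.74), and T (brachyury) 69 and 1 (5.38, 3.43 to 11.28). Of the ETS family 11 of 24 were higher in mTEC and 1 in cTEC. Spib, a factor of microfold cells, was at 348 and 22.8 CPM (3.93). Of 326 zinc finger genes named Zfp, 11 (3.37%, against 19.0% of all tested genes) were higher in mTEC and 29 (8.90%, against 8.53%) in cTEC, with a median of −0.27.

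Lineage factors of other tissues were among the genes higher in mTEC. Insm1, a regulator of endocrine cells, stood at 194 CPM in control mTEC and 8.44 in control cTEC (4.52, 4.27 to 4.79). The intestinal factor Cdx1 was at 186 and 9.03 CPM (4.36), Tfap2b at 61.1 and 2.68 (4.49), and Runx3 at 71.8 and 5.30 (3.75). Cdx2 had 79 reads in mTEC and none in cTEC, at least 23.6-fold higher. Higher in cTEC were the nuclear receptors Nr2f1 (71 and 352 reads, −2.46) and Thra (247 and 1254 reads, −2.50), and Klf15, at 5.69 and 82.1 CPM.

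A list of 23 genes holds Aire, Fezf2 and their partners. Of these 6 (26.1%, against 19.0% of all tested genes) were higher in mTEC and none in cTEC. Among the 6 were Aire and Fezf2, which are medullary markers themselves, and Irf4, Top2a and Sirt1. Sirt1, a deacetylase that acts on Aire, stood at 339 CPM in control mTEC and 98.8 in control cTEC (375 and 110 in the knockout pair, 1.78 and 1.77). The list median was −0.05, near that of all genes, and its sign turned with the scaling (−0.06 to 0.04). Of 22 genes of RANK, CD40 and NF-kB signalling, 7 were higher in mTEC and none in cTEC, with a median of 0.62. These were the decoy receptor Tnfrsf11b (1561 and 107 reads, 3.70), Tnfrsf11a, Cd40 (2.26), Traf1 (1.89), Nfkb2 (1.32), Tnfrsf1b (1.08) and Relb (1.07). Nfkb2 and Relb encode the pair of subunits of the noncanonical pathway. The other 15 did not reach the rule.

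Chemokine genes were divided between the populations. Of 22 ligands 11 were higher in mTEC and 3 in cTEC, with a median of 1.09. The cortical 3 were Cxcl12, which recruits progenitors, at 167 CPM in control mTEC and 1758 in control cTEC (−3.39), Ccl25, a ligand for CCR9, at 290 and 1858 (−2.68), and Cx3cl1 at 234 and 480 (−1.04). The summed level of the list was 2889 CPM in mTEC and 6086 in cTEC. On the medullary side, Ccl22, a ligand for CCR4, stood at 93.6 and 18.6 CPM (2.33), Ccl20 at 49.6 and 5.89 (3.07) and Cxcl14 at 43.8 and 4.91 (3.15). Ccl9 had 755 and 52 reads (3.69).

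Cytokine genes also went both ways, with 6 of 16 higher in mTEC and 3 in cTEC. Kitl (stem cell factor), which supports early progenitors, was at 16.1 CPM in control mTEC and 83.7 in control cTEC (−2.37). The alarmin Il33 was at 6.16 and 41.2 CPM (−2.74), and Flt3l at 14.8 and 30.9 (−1.06). On the medullary side were the receptor antagonist Il1rn (98.4 and 14.5 CPM, 2.76) and Lif (460 and 122 reads, 1.75). Il18 passed with 41 and 14 reads (1.36, 0.49 to 2.38), but its knockout libraries held 21 and 32 reads.

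The Notch pathway had members on both sides. Of 18 genes 3 (16.7%) were higher in cTEC and 5 (27.8%) in mTEC, against 8.53% and 19.0% of all tested genes. The cortical 3 were all ligands: Jag2 (185 and 680 CPM, −1.88), Dll1 (60.9 and 174, −1.52) and Dll4, the ligand that commits progenitors to the T lineage (35.2 and 76.5, −1.12). The 5 higher in mTEC were the glycosyltransferases Mfng (2.77) and Lfng (1.07), the inhibitory ligand Dll3 (2.32), the feedback inhibitor Nrarp (1.84) and the receptor Notch4 (1.61). In mTEC Mfng stood at 18.5 CPM and Lfng at 5.81.

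Growth factor families had single large differences within medians near 0. Of 33 Wnt pathway genes 9 (27.3%) were higher in mTEC and 4 (12.1%) in cTEC, against 19.0% and 8.53% of all tested genes. Wnt10b had 1114 and 25 reads in the control pair and 1114 and 24 in the knockout pair (5.29, 4.75 to 5.95), and the Wnt antagonist Sfrp5 214 and 12 (3.94). Wnt4, named after its values were seen, was at 134 and 418 CPM (−1.64). Of 29 FGF, BMP and TGF-beta genes 5 (17.2%) were higher on each side, against 19.0% of all tested genes for mTEC and 8.53% for cTEC. Fgf21, a hormone usually secreted by liver, was at 206 and 7.39 CPM (4.79, 4.53 to 5.08) and Bmp2 at 45.8 and 2.88 (3.98). The receptors Tgfbr3 (42.5 and 226 CPM, −2.41) and Tgfbr2 (43.8 and 164, −1.90) were higher in cTEC.

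Antigen presentation genes past the rule were mostly proteases. Of 17 lysosomal proteases and inhibitors 7 were higher in mTEC and 4 in cTEC. Ctsl, which trims invariant chain in cortical cells, stood at 1605 CPM in control mTEC and 5414 in control cTEC (1813 and 6857 in the knockout pair, −1.75), and Prss16, Cstb and Ctsa were the other 3 cortical members. Ctss, the corresponding protease of other antigen-presenting cells, stood at 126 and 21.7 CPM (2.53), Ctsh at 175 and 27.3 (2.68) and Ctsz at 233 and 46.1 (2.34). Ctsc, Cst6, Ctsk and Ctse completed the medullary 7 together with Ctss, Ctsh and Ctsz.

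Of 11 proteasome genes, Psmb11 and the immunoproteasome subunit Psmb9 (141 and 389 CPM, −1.46) were higher in cTEC and the activator Psme1 (224 and 105 CPM, 1.09) in mTEC. MHC class II genes summed to 24164 CPM in mTEC and 20197 in cTEC. Of these 11 genes 2 (18.2%, near the 19.0% of all tested genes) were higher in mTEC. They were H2-Ob, a brake on peptide loading (60.1 and 21.8 CPM, 1.46), and the lysosomal thiol reductase Ifi30 (193 and 75.3, 1.36). The invariant chain Cd74 had a log2 ratio of 0.25 and H2-Aa one of 0.37. Of 14 class I genes H2-Q7 alone reached the rule (1.11), and its knockout value was 0.79.

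Of 16 costimulatory and checkpoint ligands with 50 reads, 7 were higher in mTEC, 1 in cTEC and 8 on neither side, with a median of 0.70. The 19 listed genes summed to 2709 CPM in mTEC and 2999 in cTEC. Icosl stood at 282 CPM in control mTEC and 24.6 in control cTEC (279 and 22.4 in the knockout pair, 3.52), Cd70 at 20.5 and 2.29 (3.14) and Tnfsf9 (4-1BB ligand) at 20.2 and 2.36 (3.09). Cd80, Cd40, Cd86 (1.76) and Pdcd1lg2 (1.01) made up the rest. The cortical member was Cd274 (PD-L1), at 301 and 765 CPM (−1.35).

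Genes of mimetic cells were higher in mTEC in most programs. The counts of members higher in mTEC were 16 of 16 for muscle (median 3.30), 16 of 18 for keratinocytes (2.40), 17 of 22 for enterocytes and hepatocytes (2.57), 12 of 14 for neuroendocrine cells (2.65), 8 of 10 for microfold cells (2.96), 8 of 9 for ionocytes (2.85) and 7 of 8 for exocrine pancreas (4.05). None of these members was higher in cTEC except the pancreatic factor Rbpjl, with 23 and 60 reads. Members below 50 reads were left out: 16 of the 20 listed muscle genes, 18 of 21 keratinocyte, 14 of 17 neuroendocrine, 8 of 18 pancreatic and 9 of 13 ionocyte genes entered, and all of the enterocyte and microfold lists. A member with few cTEC reads could enter only by its mTEC reads, so the read minimum partly fixed the direction of these counts and medians.

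Within these programs, Insm1 and the peptide gene Calca (60.3 and 1.83 CPM, 5.01) were among the neuroendocrine members higher in mTEC. Chga (−0.01) and Cck (0.50) did not reach the rule. The 17 listed neuroendocrine genes summed to 1711 CPM in control mTEC and 1330 in control cTEC. The giant sarcomere protein Ttn had 1221 and 85 reads (3.68), the muscle factor Myog 109 and 3 (4.81), and cardiac actin Actc1 119 and 0, at least 35.6-fold higher. The desmosomal gene Dsg1a had 3353 and 164 reads (4.19), with 35.4% of its windows shared with other genes. The lipoprotein gene Apoa4 had 511 and 23 reads (4.29), and Ctrb1, a pancreatic chymotrypsinogen, 416 and 20 (4.19). The 5 enterocyte and hepatocyte members that did not reach the rule were all liver plasma protein genes. They were Alb (0.11), Trf (0.48), Ahsg (0.36), Ttr (0.92) and Serpina1a (−0.79). In the knockout pair these stood at 2.24, 0.75, 4.5, 2.59 and 5.04, a difference that was not tested.

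The tuft and ciliated programs differed less or the other way. Of 14 tuft genes 4 were higher in mTEC and none in cTEC (median 0.82). Gnat3, a taste G protein, had 83 and 17 reads (2.10), while the tuft regulator Pou2f3 (0.85) and the channel Trpm5 (0.66) did not reach the rule. Of 20 ciliated genes 1 was higher in mTEC and 4 in cTEC (median −0.24). Mcidas, which starts the program, had 52 and 3 reads (3.75). Dynlrb2 (−2.02), Cfap44 (−1.62), Hydin (−1.23) and Trp73 (−1.19) were the cortical 4, and the ciliary regulator Foxj1 stood at 42.1 and 36.0 CPM (0.23).

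The tissue antigen lists were cut further by the minimum of 50 reads, and the same limit on direction holds for them. It left 13 of 18 endocrine, 7 of 18 milk and salivary, 13 of 15 airway, 7 of 20 germline and 15 of 22 nervous system and eye genes, and of the listed genes 3, 10, 1, 7 and 5 had 0 reads in control cTEC. Of the 13 endocrine genes 12 were higher in mTEC, with a median of 4.29, or 4.24 with the member lacking cTEC reads at the floor. Calcb stood at 282 CPM in control mTEC and 14.2 in control cTEC (4.31), and Ins2 had 134 and 2 reads (5.59, 4.03 to 8.97). Pth, parathyroid hormone, was the exception, at 834 and 874 CPM (−0.07), and at 658 and 966 in the knockout pair. Of 7 milk and salivary genes 6 were higher in mTEC, among them the casein Csn2 (412 and 23.6 CPM, 4.12), and the amylase Amy1 was higher in cTEC (78 and 331 reads, −2.24). Of 13 airway genes 9 were higher in mTEC, and Bpifa1 was higher in cTEC (117 and 282 CPM, −1.27). Of 7 germline genes 6 were higher in mTEC, and the oocyte factor Gdf9, with 15 and 63 reads, in cTEC. Of 15 nervous system and eye genes 9 were higher in mTEC, and Nefm in cTEC. These exceptions are named because they complete small counts.

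**Figure D3:**
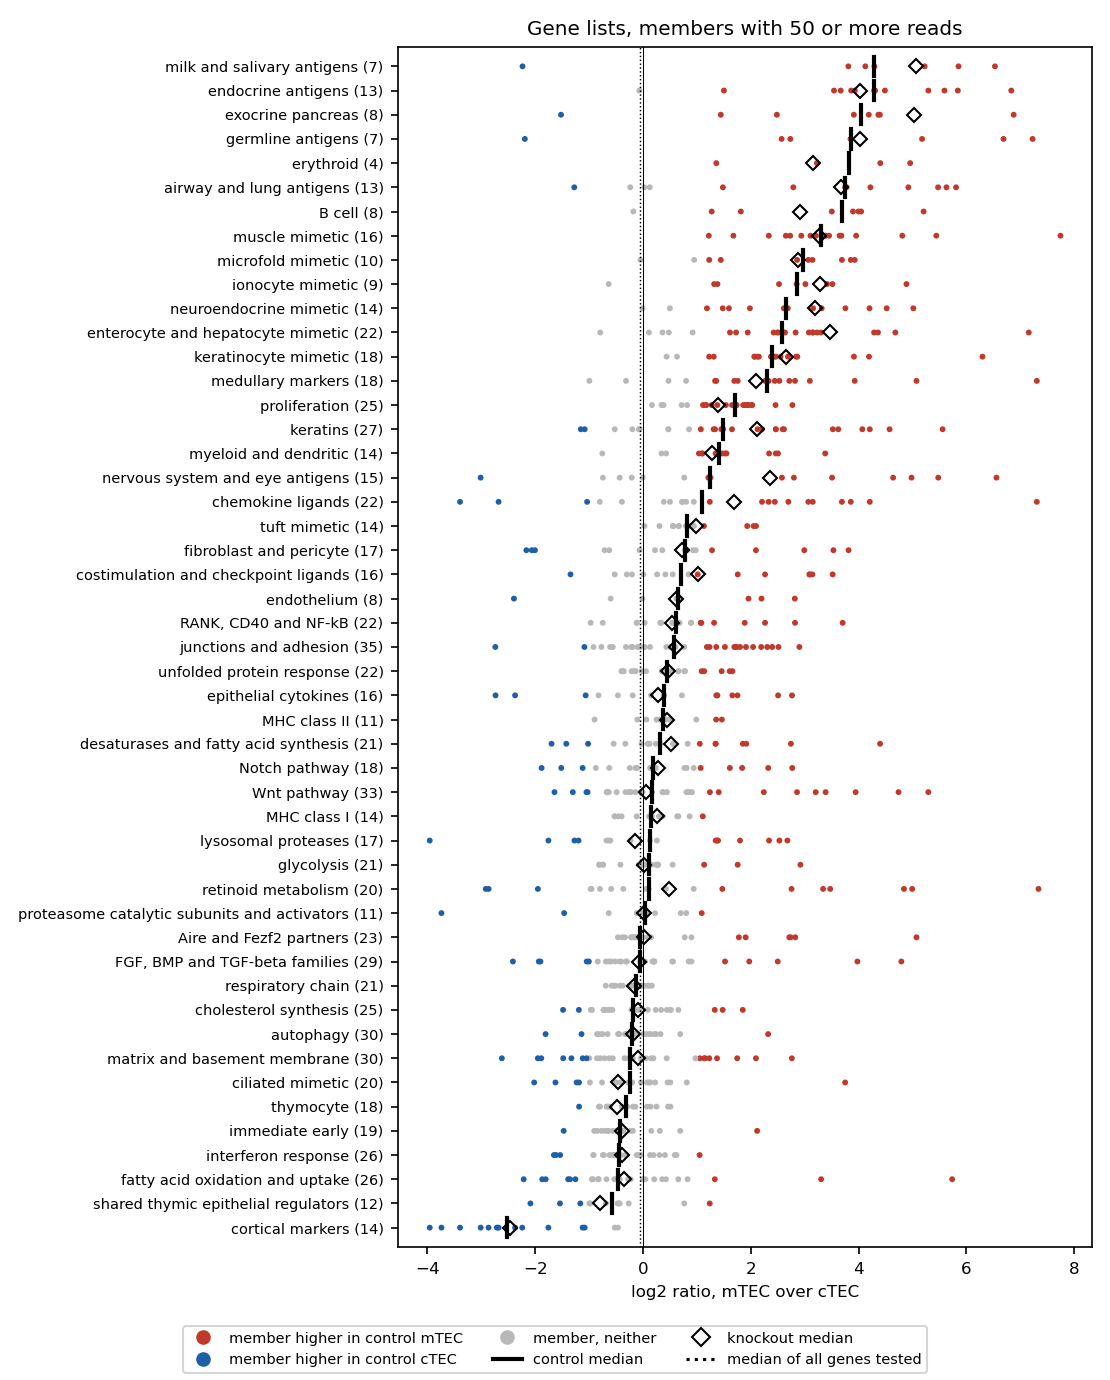
Log2 ratio of control mTEC over control cTEC for the members of each gene list with 50 or more reads (number in parentheses); red and blue points passed the size rule in mTEC and cTEC, black bars are control medians, diamonds medians of the knockout pair and the dotted line the median of all genes. The medians of most tissue antigen and mimetic lists lie right of 2. Those of the metabolic lists and of MHC genes lie between −0.46 and 0.37, and the cortical markers have a median of −2.53.

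Keratins are the intermediate filaments of epithelia. Of 40 tested keratin genes 30 were higher in mTEC and 2 in cTEC, with a median of 2.53. Among them, Krt77 had 1076 and 20 reads (5.56), Krt20 836 and 31 (4.57) and Krt73 214 and 2 (6.27). All 53 listed keratin genes summed to 12106 CPM in mTEC and 11832 in cTEC. Of these 53 genes 7 had 0 reads in control cTEC, and the read minimum partly fixed the direction of the keratin counts as well. Of 35 junction and adhesion genes 15 were higher in mTEC and 2 in cTEC. They included the connexin Gjb2 (87.7 and 11.7 CPM, 2.90), the tight junction genes Tjp3 (2.40) and Cldn7 (2.19), and Cldn4 (311 and 96.2 CPM, 1.69). The cadherin Cdh4 was higher in cTEC (28.8 and 192 CPM, −2.74).

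Matrix genes went both ways, with 8 of 30 higher in mTEC and 7 in cTEC. Of the basement membrane collagens, Col4a6 had 41 and 228 reads (−2.62), Col4a5 295 and 1024 (−1.95) and Col18a1 3441 and 8607 (−1.48), all higher in cTEC, as was the anchoring collagen Col7a1 (−1.89). Col4a1 (0.19), Col4a2 (−0.19), Col4a4 (−0.27) and Col17a1 (0.97) did not reach the rule. In the whole collagen family 17 of 39 genes were higher in mTEC and 6 in cTEC, with a median of 0.85. Higher in mTEC were the laminin chain Lama2 (94 and 12 reads, 2.76) and the fibrillar collagen Col1a1 (507 and 106, 2.10), a defining fibroblast marker. The fibrillar collagens Col1a2 (−0.63) and Col3a1 (−0.71), also on the fibroblast list, did not reach the rule. The fibroblast list had members on both sides, with 5 of 17 higher in mTEC and 3 in cTEC: Rgs5 had 5706 and 643 reads (2.99), while Dcn had 1210 and 4535 (−2.06). The pericyte receptor Pdgfrb had 393 and 30 reads (3.53).

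Lipid synthesis genes were divided between the populations. Scd1, the gene disrupted in the knockout mice, stood at 76.9 CPM in control mTEC and 21.3 in control cTEC, 3.61-fold higher in mTEC (1.85, 1.68 to 2.03), and at 15.8 and 4.16 CPM in the knockout libraries. Scd2 was the more abundant desaturase per length in both, at 185 TPM in mTEC and 233 in cTEC against 45.4 and 12.6 for Scd1, and did not reach the rule (−0.33). Acacb, the acetyl-CoA carboxylase of the mitochondrial membrane, was at 130 and 6.15 CPM and the lipogenic regulator Thrsp at 27.8 and 4.12 (2.74). The fatty acid synthase Fasn (175 and 470 CPM, −1.42) and its activator Srebf1 (143 and 465, −1.70) were higher in cTEC. In all, 7 of 21 listed genes were higher in mTEC and 3 in cTEC.

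Fatty acid oxidation and uptake had more members on the cortical side, with 6 of 26 genes higher in cTEC, 3 in mTEC and a median of −0.46. The carnitine transferase Cpt1a was at 93.1 and 325 CPM (−1.80) and lipoprotein lipase Lpl at 26.3 and 122 (−2.21), while the fatty acid carrier Fabp4 was at 131 and 13.2 (3.30). Retinoid genes were on both sides, with 7 of 20 higher in mTEC and 3 in cTEC. The retinol receptor Stra6 (94.6 and 3.27 CPM, 4.84) and the degrading enzyme Cyp26a1 (28.1 and 0.851, 4.99) were higher in mTEC with Crabp1, whereas Cyp26b1 (8.92 and 65.2, −2.87) and the retinal dehydrogenase Aldh1a1 (5.16 and 39.2, −2.92) were higher in cTEC. No member of the respiratory chain list (21 genes, median −0.12) or of the 81 cytosolic ribosomal proteins (0.12) reached the rule.

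Cell cycle genes were higher in mTEC, with 20 of 25 past the rule, none in cTEC and a median of 1.71. Cdk1 had 605 and 79 reads (2.77) and Top2a 1233 and 295 (1.90), and in the knockout pair 549 and 86, and 1232 and 365. Of 22 unfolded protein response genes 5 (22.7%, near the 19.0% of all tested genes) were higher in mTEC, with a median of 0.44. Among them was Sdf2l1 (45.2 and 14.8 CPM, 1.61). Of 26 interferon response genes 3 (11.5%, against 8.53% of all tested genes) were higher in cTEC and 1 in mTEC, with a median of −0.44. Ifit1 was at 144 and 453 CPM (−1.65) and Gbp2 at 141 and 432 (−1.62). The 19 immediate early genes summed to 28268 CPM in mTEC and 41694 in cTEC, with Egr3 higher in mTEC (2.12) and Ier3 in cTEC (−1.47).

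Some genes higher in mTEC lay side by side in the genome. In the order of tested genes along each chromosome, 82 runs of 4 or more consecutive genes higher in mTEC were found, holding 427 genes. For cTEC there were 12 runs with 55 genes. Genes higher in mTEC were 19.0% of those tested and genes higher in cTEC 8.53%, which alone makes medullary runs the more frequent. The numbers of runs expected from these shares were not calculated. Runs of 8 or more numbered 9 and 0. The longest held 17 kallikrein genes, the pseudogene Klk2-ps among them, serine proteases of skin, gland and salivary secretions, within 521 kb of chromosome 7 (43690418 to 44211754). Their log2 ratios ranged from 1.71 to 7.67 with a median of 3.61, and 4.22 in the knockout pair. The highest rests on 0 cTEC reads and depends on the prior count. Klk4 had 352 reads in control mTEC and 10 in control cTEC, Klk14 255 and 13, and Klk1b8 113 and 0. Another run held 10 keratin genes from Krt71 to Krt78 on chromosome 15 (101733949 to 101954287, median 3.79), and one of 8 genes on chromosome 5 held 4 caseins (median 4.76).

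A run of 9 genes within 91 kb of chromosome 7 (45613886 to 45704682) held Fgf21, Fut1 and Fut2. On the cortical side, Zswim3, Zswim1, Spata25, Neurl2, Ctsa and Pltp lay together within 53 kb of chromosome 2 (164805098 to 164857711, median −2.09), where the phospholipid transfer protein Pltp stood at 217 and 1140 CPM. No source used here gives the strand setting of the counting, so overlapping neighbours can share reads. In the kallikrein run 1 of the 17 genes had 25% or more of its 50-base windows in another gene. The share of genes higher in mTEC ranged from 12.9% on chromosome 12 to 24.8% on chromosome 14.

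**Figure D4:**
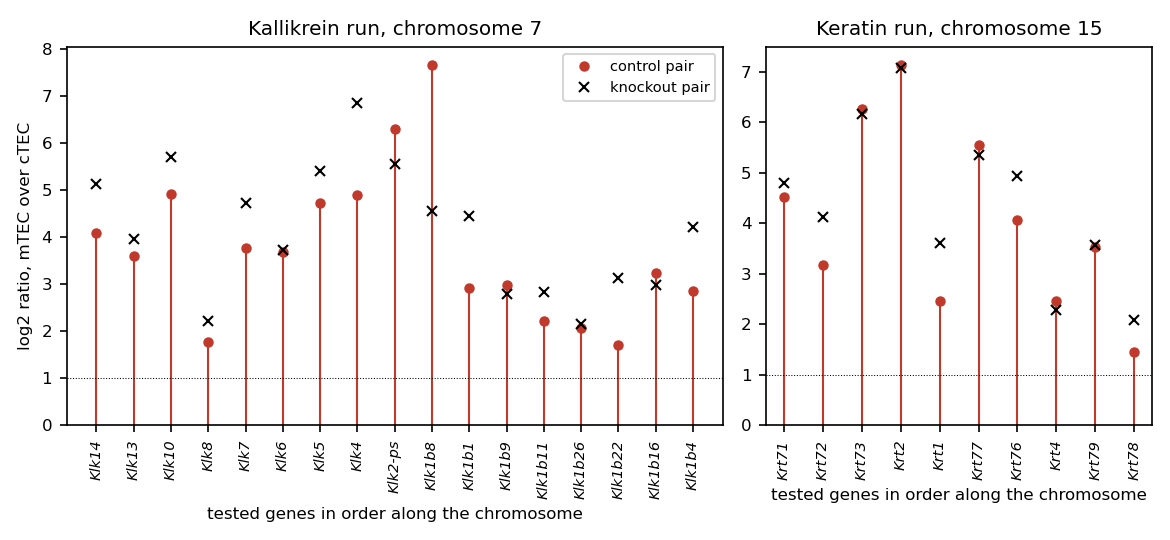
Log2 ratio of mTEC over cTEC for the tested genes of 2 runs in their order along the chromosome: 17 kallikrein genes and 10 keratin genes; red points are the control pair, crosses the knockout pair, and the dotted line marks the 2-fold rule. Every gene of both runs lies above the dotted line in both pairs; the 2 highest control points, Klk1b8 and Krt2, rest on 0 cTEC reads.

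Promoter sequences are shown for a few genes with large ratios. The 150 bases before the RefSeq transcript start (build GRCm38.p6, which is mm10) are shown for the 3 first kallikreins of the run, for Aire and for 2 leading cortical genes, with CG in capitals. The hexamer TATAAA is also in capitals, searched on the gene's own strand. The genes were chosen with their ratios known.

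Klk14 (chr7:43690268-43690417, plus strand): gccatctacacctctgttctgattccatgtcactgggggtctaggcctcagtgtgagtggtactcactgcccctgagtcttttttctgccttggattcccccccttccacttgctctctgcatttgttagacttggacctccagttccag

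Klk13 (chr7:43712417-43712566, plus strand): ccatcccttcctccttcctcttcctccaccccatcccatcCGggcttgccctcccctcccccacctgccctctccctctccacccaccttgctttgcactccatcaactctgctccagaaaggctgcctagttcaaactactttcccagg

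Klk10 (chr7:43780904-43781053, plus strand): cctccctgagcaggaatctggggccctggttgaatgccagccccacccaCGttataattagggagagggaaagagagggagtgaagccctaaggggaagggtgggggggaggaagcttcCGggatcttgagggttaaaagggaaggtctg

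Aire (chr10:78043611-78043760, minus strand): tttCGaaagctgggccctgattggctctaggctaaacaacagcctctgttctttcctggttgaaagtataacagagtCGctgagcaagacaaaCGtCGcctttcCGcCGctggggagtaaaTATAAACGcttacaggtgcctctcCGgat

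Snhg11 (chr2:158375563-158375712, plus strand): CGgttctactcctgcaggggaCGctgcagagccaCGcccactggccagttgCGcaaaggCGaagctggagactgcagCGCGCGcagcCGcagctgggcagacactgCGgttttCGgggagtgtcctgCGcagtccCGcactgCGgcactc

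Igfbp7 (chr5:77408046-77408195, minus strand): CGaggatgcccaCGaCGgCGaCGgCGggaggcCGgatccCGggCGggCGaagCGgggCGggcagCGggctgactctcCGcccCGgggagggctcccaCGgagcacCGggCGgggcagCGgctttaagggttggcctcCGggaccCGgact

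The windows of Klk14, Klk13 and Klk10 hold 0, 1 and 2 CG, that of Aire 8, and those of Snhg11 and Igfbp7 14 and 21. These are 3 of the 17 kallikreins of the run, and the contrast is not general: of the other leading genes read, the medullary Pdyn, Clca3b and Crabp1 hold 6, 4 and 9, and the cortical Scn1a 4. The RefSeq start lies 19 bases from the start in the deposited table for Klk10, 75 for Snhg11 and 4 for Igfbp7. Over all 32817 RefSeq mouse promoters of this length the median was 4. TATAAA was found once, 29 bases before the start of Aire, and 4.84% of all promoters of this length hold it. A match or its absence describes these letters and says nothing of a factor.

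The CG content was measured over all protein-coding genes, on the first 200 bases of each gene's longest GENCODE transcript. The measure was the ratio of observed to expected CG, with C and G contents taken into account. It is low at starts without a CpG island. Its median was 0.741 over all 14396 genes with a value, 0.784 for genes higher on neither side, 0.496 for genes higher in mTEC and 0.665 for genes higher in cTEC. Below 0.4 lay 15.4% of genes on neither side, 40.8% of those higher in mTEC and 24.1% of those higher in cTEC. Among medullary genes whose interval excluded less than 8-fold, it was 54.1% of 505. Among cortical genes whose interval excluded less than 4-fold, it was 25.3% of 150. These sets differ in threshold and were not split by level.

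Low levels and low CpG ratios go together, so the shares were also taken within tertiles of the tested genes by summed reads. In the low tertile they were 26.2% on neither side, 44.1% for mTEC and 30.2% for cTEC. In the high tertile they were 11.1%, 32.7% and 19.4%. The medullary share was the highest in each tertile. Transcript starts in the annotation need not be those used in these cells.

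**Figure D5:**
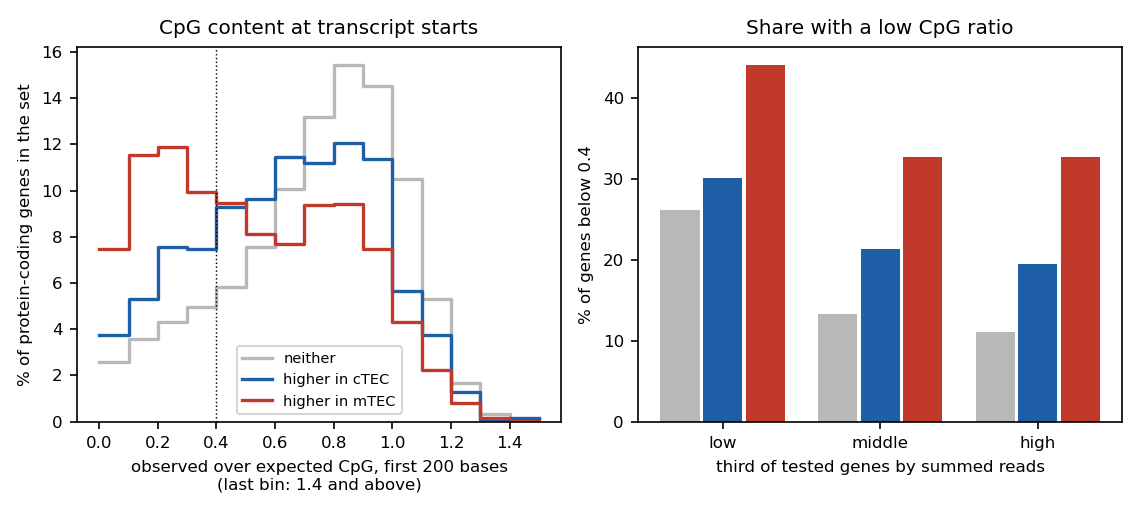
Left, distribution of the observed over expected CpG ratio in the first 200 bases of the longest transcript of protein-coding genes, as the percentage of each set per bin of 0.1, for genes higher in mTEC, higher in cTEC or neither, with the dotted line at 0.4. Right, percentage of genes below 0.4 in each tertile of genes by summed reads; in the middle tertile it was 13.4% for neither, 21.3% for cTEC and 32.7% for mTEC.

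Noncoding transcripts were also divided. Of 283 lincRNAs tested 72 were higher in mTEC and 58 in cTEC, that is 25.4% and 20.5%, against 19.3% and 7.99% of 14409 protein-coding genes. The imprinted gene H19, singled out after its values were seen, had 294 and 15 reads in the control pair and 261 and 16 in the knockout pair (4.09).

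The knockout libraries, which share no sample with the control pair, gave the same comparison a second time in another genotype. There 3162 of 15962 tested genes (19.8%) were higher in mTEC and 1430 (8.96%) in cTEC. Of the 2990 genes higher in control mTEC, 2637 were called the same way in the knockout pair, which is 88.2% of the control and 83.4% of the knockout list. Of the 1343 higher in control cTEC 1039 were, 77.4% and 72.7% of each list. The sign of the ratio was the same for 2968 and 1321 genes of the control lists. In the opposite direction 2 and 6 genes were called. Across the 15509 genes tested in both pairs the log2 ratios had a Pearson correlation of 0.942 and a Spearman correlation of 0.917, a description over genes that share libraries. The ratio of the knockout pair minus that of the control pair lay between −0.60 and 0.77 for the middle 90% of genes.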

How the data were processed

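Bulk RNA-seq was deposited as 1 table with a read count per gene and library, beside gene length, coordinates (mm10), biotype and transcription factor family, per the file headers. Per the submitters' processing notes, CASAVA, HISAT2 2.0.5 and featureCounts 1.5.0-p3 were used. The annotation, strand and multi-mapper settings are not stated in any source used here.

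The deposited counts were scaled with TMM factors from all 4 libraries (edgeR 4.0.16, R 4.3.3), which ranged from 0.966 to 1.03, and log2 ratios used a prior count of 0.5. Within control mice each side is 1 library, which leaves no residual degree of freedom, so the control ratios have no test. A gene passed the size rule at 2-fold or more with an exact 95% interval (binomial, conditional on both counts) that excluded equality. Intervals and the floor of 3 counts (0.171 to 0.196 CPM) cover counting error only. Levels per length divided reads by the deposited gene length. Near-identical copies were measured as the share of a gene's 50-base windows found in another gene. The calculations were tested on simulated data. Python 3.11.15, numpy 2.4.6, pandas 2.3.3, scipy 1.17.1 and matplotlib 3.10.9 were used.

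The members, 56 gene lists, 35 families and 13 deposited transcription factor families were chosen with earlier results of these data known. Of the listed symbols 1 was not found and 2 were matched by an older name. Named were all identity markers, the 15 protein-coding genes per side with the interval bound farthest from 0 (leaving out Gm and Rik gene models and antigen receptor segments), the 12 per side with the highest level per length, up to 6 members per list and family with the largest bound, defining markers of other cells, and the desaturases. Named after their values were seen were Fut1, Fut2, H19, Wnt4, Klk13 and the genes that complete a small count, a run or a list (Tnfrsf1b, Cx3cl1, Flt3l, Il18, Lfng, Ctsa, Cst6, Ctsk, Ctse, Pdcd1lg2, Cd274, Rbpjl, Amy1, Bpifa1, Gdf9, Krt78, Zswim3, Zswim1, Spata25 and Neurl2), or that give a value below the rule (Cd74, H2-Aa, Pou2f3, Trpm5, Foxj1, Pth, Col4a1, Col4a2, Col4a4 and Col17a1). Alb, Trf, Ahsg, Ttr, Serpina1a, Chga, Cck, Col1a2 and Col3a1 were also named after their values were seen, for values below the rule. Alternatives were other scalings (total count, upper quartile, DESeq2 1.42.0 size factors), read minimums, prior count, fold threshold, protein-coding genes alone, and, added after seeing the data, factors from the control pair alone, leaving out genes with copies, and an edgeR quasi-likelihood fit of population with genotype as block over all 4 libraries (1 residual degree of freedom, which takes the population difference to be equal in both genotypes). The RefSeq promoter table held fewer than 80% of the called genes, so promoter windows were compared for single genes and the CpG measure used transcripts.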

Additional observations from a re-analysis of the deposited data

Results flagged for a closer look

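For 8 genes the control and the knockout pair passed the size rule in opposite directions. With 1 library per group, the difference between genotypes was not tested. Otog, which encodes the inner ear protein otogelin, had 141 reads in mTEC and 289 in cTEC of control mice, a log2 ratio of −1.19, and 164 and 41 in knockout mice, a ratio of 1.98. Dbndd1 had 40 reads in mTEC and 13 in cTEC of control mice, a log2 ratio of 1.43, and 13 and 37 in knockout mice, a ratio of −1.48. Neither of them shares a 50-base window with another gene, and the reads of Dbndd1 were few in all 4 libraries. Ighg2c, an antibody constant region, had 75 reads in mTEC and 229 in cTEC of control mice, a log2 ratio of −1.76, and 78 and 34 in knockout mice, a ratio of 1.18. Of its windows 4.17% occur elsewhere, and B cell markers summed to more CPM in mTEC than in cTEC in both genotypes. The other 5 genes share between 77.8% and 100% of their windows with other genes. The part of read assignment between copies in their values was not tested. Ccl19-ps3, a pseudogene of Ccl19, had 44 reads in mTEC and 200 in cTEC of control mice, a log2 ratio of −2.33, and 507 and 82 in knockout mice, a ratio of 2.62. Srp54b, a copy of a signal recognition particle gene, had 31 reads in mTEC and 141 in cTEC of control mice, a log2 ratio of −2.32, and 177 and 29 in knockout mice, a ratio of 2.59. Gm10705 had 68 reads in mTEC and 140 in cTEC of control mice, a log2 ratio of −1.19, and 153 and 34 in knockout mice, a ratio of 2.15. All 3 have a higher mTEC than cTEC count in the knockout pair only. Eif3j2 had 24 reads in mTEC and 51 in cTEC of control mice, a log2 ratio of −1.23, and 57 and 28 in knockout mice, a ratio of 1.01. Gm2004 had 37 reads in mTEC and 16 in cTEC of control mice, a log2 ratio of 1.03, and 9 and 42 in knockout mice, a ratio of −2.16.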

How the results depend on the processing

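The minimum of reads set the medullary count most: 5145 genes were higher in mTEC with a minimum of 10 reads, 5785 with none and 1416 with 200. At a fold threshold of 4 the counts were 1749 in mTEC and 303 in cTEC, and at 1.5 the cortical count was 3011. Under the other alternatives run, both counts stayed within 1.5 times the values reported: with total counts they were 3165 and 1134, with DESeq2 size factors 3011 and 1313, and without genes with copies 2873 and 1280. The median of all genes lay between −0.07 and 0.04 under the scalings tried. With 200 reads the median of a serine protease family, which includes Prss34 and Prss23, turned from 2.73 to −0.38. The cause was not tested. Many other list and family medians moved with the read minimum by more than the median counting error of their members. These were 25 with a minimum of 200 reads, 25 with none and 18 with 10. The sign of the medians of the Aire and Fezf2 partners, of the FGF, BMP and TGF-beta families and of the deposited IRF and THR-like families turned with the scaling. The edgeR quasi-likelihood fit of population with genotype as block over all 4 libraries, at an adjusted p under 0.05 and 2-fold, called 3036 genes higher in mTEC and 1309 in cTEC, of which 2849 and 1174 were also called by the control ratio alone. The fit includes the control libraries themselves, so this overlap is no independent check. It rests on 1 residual degree of freedom and takes the difference to be equal in both genotypes. No paired analysis within control mice was possible because they have 1 library a population. Depth limits the medullary ratios, many of which rest on few or no cTEC reads. Without replicates the spread between animals is unknown.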
